A study of Mus musculus with 20 samples.

Results

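Genes that mark cytotoxic T cells and the T cells lodged in the gut lining were followed across mouse intestinal libraries: Cd3d, Cd3e, Cd3g, Cd8a, Cd8b1, Gzma, Gzmb, Nkg7, Ccl5 and Itgae. They were picked by name, and all 10 were among the 24795 genes of the expression table. The study sequenced total RNA from 6 Apc Min samples given DM-aKG, 7 Apc Min samples given a control treatment and 7 wild-type (WT) samples listed as having no treatment. Apc Min mice carry an inherited truncating mutation of Apc, which restrains beta-catenin, and develop adenomas along the intestine. DM-aKG is dimethyl alpha-ketoglutarate, an ester of the TCA cycle metabolite that crosses cell membranes. Under the series title the treatment bears on Wnt signalling and differentiation in colorectal cancer. Ages, doses and the length of treatment were not given in the sources used here.

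The intestinal epithelium holds many T cells between its cells, called intraepithelial lymphocytes. The T cell receptor reports antigen through the CD3 chains, and the CD8 coreceptor binds class I MHC molecules. Intraepithelial lymphocytes of mice often carry CD8 as pairs of alpha chains rather than as an alpha and a beta chain. They keep granules of granzymes ready for release and hold on to E-cadherin of the epithelium through the integrin chain CD103, the product of Itgae.

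The labels of all 20 samples name intestinal organoids, primary cells, organoid medium and low-glutamine medium, while the sample titles name tissue. Organoids of epithelium alone would lack T cells. Ptprc, which encodes the leukocyte antigen CD45, stood between 1.16 and 3.9 RPKM (median 3.05) in DM-aKG libraries, between 1.01 and 5.76 RPKM (median 1.8) in control libraries and between 4.46 and 9.93 RPKM (median 6.82) in WT libraries. RPKM is reads per kilobase of gene, scaled to the mapped reads of the library. The smooth muscle myosin Myh11 was at 36.8 RPKM or more in every library, and the epithelial adhesion gene Epcam at 506 RPKM or more. Leukocyte and muscle RNA was therefore present beside epithelial RNA in every library. The estimated depth was 21.33 to 29.35 M reads per library. Of 12431 genes tested, 735 were higher and 3432 lower in DM-aKG than in control libraries, a split that turned to 1750 and 1849 after quantile normalization and to 1370 and 1841 after median-of-ratios scaling. For control Apc Min against WT the split was 5368 higher and 1948 lower, against 3240 and 3348 after quantile normalization and 3302 and 3396 after median-of-ratios scaling. For DM-aKG against WT it was 2722 higher and 2151 lower, against 2293 and 2428 and against 2263 and 2779 under the same scalings. The nuclear ribosomal transcript Rn45s ran from 3835.7 to 6557.9 RPKM in replicates 1 to 4 of the groups and from 1078.1 to 3620.9 RPKM in replicates 5 to 7.

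The T cell genes were far lower in both Apc Min groups than in WT, and no difference between DM-aKG and control libraries was detected. Group means of the 10 genes lay at 6.94 to 17.9% of the WT mean with DM-aKG and at 7.94 to 18.0% of it with the control treatment. For 10 of 10 genes the highest Apc Min library stayed under the lowest WT library. Of all 20519 genes above 0 in some library, 4.09% were wholly lower in control libraries than in WT and 5.26% wholly lower with DM-aKG than in WT. In bulk RNA, fewer T cells and less RNA of these genes per T cell cannot be told apart. No label ties a replicate to its own animal. Each p-value here therefore sets a group difference against the spread among libraries, which may be technical.

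**Figure D1:**
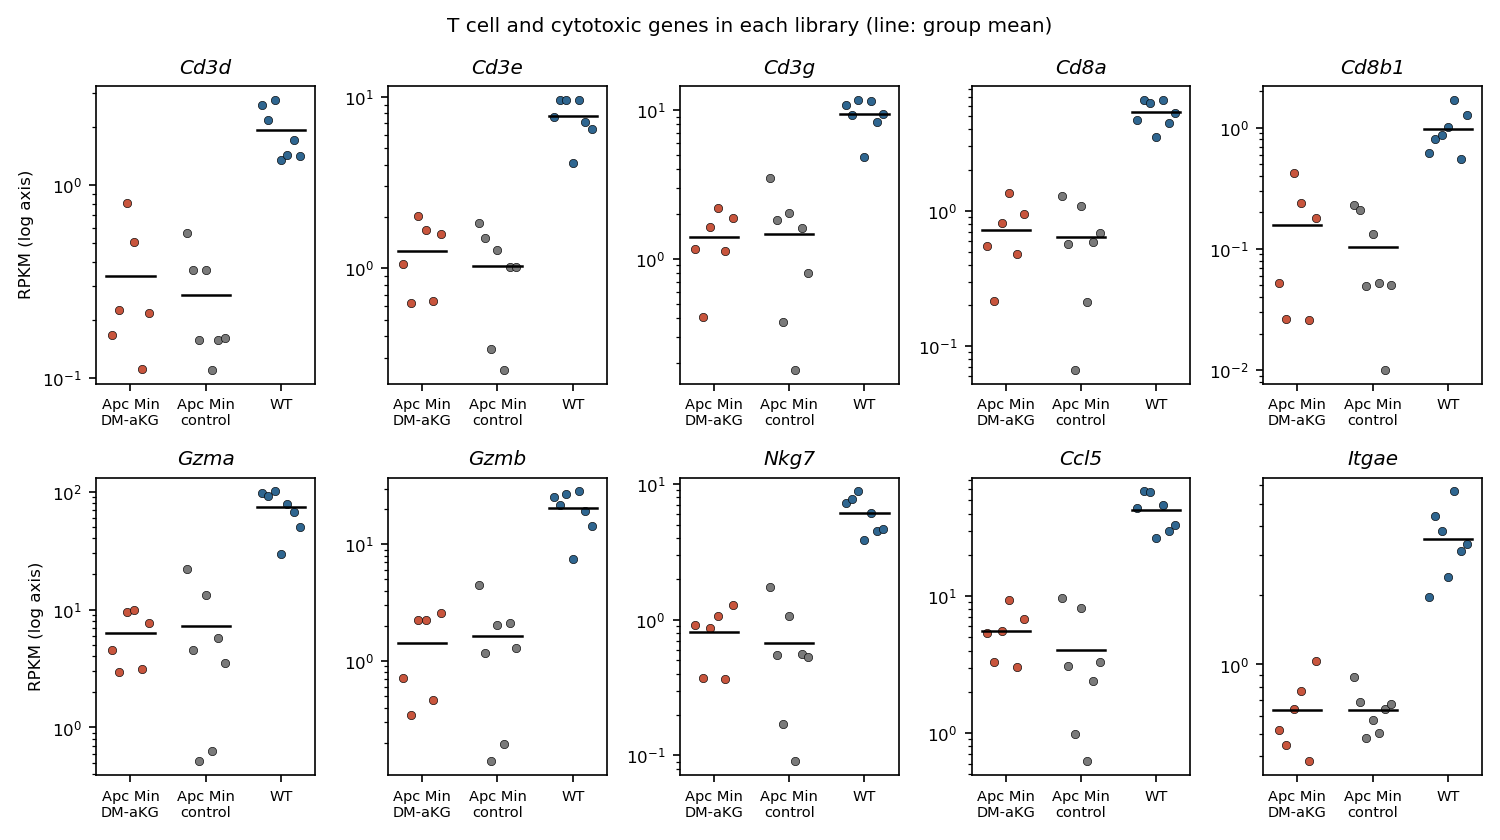
Level of each of the 10 genes in RPKM (log axis) in each library of the Apc Min DM-aKG (6), Apc Min control (7) and WT (7) groups, with a line at the group mean. In every panel the WT points lie above all Apc Min points, while the 2 Apc Min groups overlap; the control library with no Cd8b1 is drawn at 0.01 RPKM.

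The first genes are the CD3 chains, which carry the signal of the T cell receptor and mark T cells of any class. Cd3e, encoding CD3 epsilon, lay between 0.629 and 2.02 RPKM (median 1.33) in DM-aKG libraries, between 0.255 and 1.83 RPKM (median 1.02) in control libraries and between 4.12 and 9.65 RPKM (median 7.62) in WT libraries. Cd3g, encoding CD3 gamma, lay between 0.405 and 2.19 RPKM (median 1.4) with DM-aKG, between 0.179 and 3.48 RPKM (median 1.6) in control libraries and between 4.82 and 11.7 RPKM (median 9.36) in WT. Cd3d, encoding CD3 delta, was the lowest of the 3 chains, between 0.111 and 0.81 RPKM (median 0.222) with DM-aKG, between 0.11 and 0.564 RPKM (median 0.161) in control libraries and between 1.36 and 2.79 RPKM (median 1.72) in WT. The Apc Min groups overlapped each other for each chain, and both stood wholly under WT. In control libraries against WT the log2 change of RPKM + 1 was -2.12 (SE 0.202, limma adjusted p = 4.38e-08) for Cd3e, -2.16 (SE 0.257, adjusted p = 7.92e-07) for Cd3g and -1.19 (SE 0.130, adjusted p = 2.66e-07) for Cd3d. In DM-aKG libraries against WT it was -1.95 for Cd3e (adjusted p = 1.94e-06), -2.12 for Cd3g (adjusted p = 1.06e-05) and -1.13 for Cd3d (adjusted p = 6.7e-06). This scale understates the change of genes near or under 1 RPKM, such as Cd3d.

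The 3 CD3 genes sit together on mouse chromosome 9 of the mm10 build. By GENCODE M21, Cd3g (chr9:44969572-44980431, minus strand) and Cd3d (chr9:44981786-44987339, plus strand) are transcribed away from each other from starts 1355 bases apart, and Cd3e (chr9:44998740-45009627, minus strand) starts 27841 bases from Cd3d. The ratio of Cd3g to Cd3e, both per length, had a median of 1.14 over DM-aKG, 1.21 over control and 1.19 over WT libraries, while their levels differed several-fold between Apc Min and WT. The ratio of Cd3d to Cd3e had medians of 0.238, 0.286 and 0.242 in the DM-aKG, control and WT libraries. The 250 bases before the start are printed for Cd3e (chr9:45009612-45009861, minus strand) and Cd3d (chr9:44981536-44981785, plus strand), because the genes are close neighbours and both sequences hold a core letter string of ETS factors. Capitals mark that string.
Cd3e: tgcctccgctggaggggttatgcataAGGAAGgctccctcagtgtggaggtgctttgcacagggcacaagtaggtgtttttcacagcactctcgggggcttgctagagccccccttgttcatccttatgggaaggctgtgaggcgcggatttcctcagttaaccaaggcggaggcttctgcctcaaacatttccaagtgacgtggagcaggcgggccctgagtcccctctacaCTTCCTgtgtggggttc
Cd3d: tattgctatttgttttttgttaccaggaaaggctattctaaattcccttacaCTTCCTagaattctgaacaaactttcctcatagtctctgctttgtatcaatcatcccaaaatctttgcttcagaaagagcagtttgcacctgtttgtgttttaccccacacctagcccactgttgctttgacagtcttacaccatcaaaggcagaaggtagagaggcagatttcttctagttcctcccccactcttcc
Sequences are from RefSeq on GRCm38.p6, read 5′ to 3′ on the gene's strand, and positions count from the RefSeq start, which for Cd3e, Gzmb and Nkg7 differs from the GENCODE start. The string searched was AGGAAG, on either strand. Cd3e held it at -224 to -219 and at -17 to -12 from the start, and Cd3d at -198 to -193. Of 32851 promoters of the same length, 29.5% held it, so a match is common and only describes these letters. Cd3g held none, and Nkg7 was the other of the 7 genes with a promoter sequence that did.

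The CD8 genes followed the CD3 chains. Cd8a (chr6:71373427-71379173, plus strand) encodes the alpha chain, found in both forms of the coreceptor. It lay between 0.216 and 1.35 RPKM (median 0.682) with DM-aKG, between 0.0666 and 1.29 RPKM (median 0.588) in control libraries and between 3.49 and 6.65 RPKM (median 5.26) in WT. The log2 change was -1.97 (SE 0.172, limma adjusted p = 1.36e-08) for control against WT and -1.89 (SE 0.179, adjusted p = 4.58e-07) for DM-aKG against WT. No Apc Min library reached the lowest WT value.

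Cd8b1 (chr6:71322788-71337494, plus strand) encodes the beta chain, which conventional cytotoxic T cells carry, and starts 50639 bases from Cd8a. It was the scarcest of the 10 genes, between 0.026 and 0.42 RPKM (median 0.116) with DM-aKG, between 0 and 0.232 RPKM (median 0.0518) in control libraries and between 0.553 and 1.71 RPKM (median 0.866) in WT. Read steps placed these values at 1 to 16 reads per DM-aKG library, 0 to 8 reads per control library and 23 to 62 reads per WT library. Single Apc Min values therefore rest on a handful of reads. Cd8b1 did not pass the filter on low values. In a fit of all 20519 genes above 0 in some library, its log2 change was -0.82 (SE 0.106, limma adjusted p = 4.68e-06) for control against WT and -0.76 (SE 0.110, adjusted p = 9.21e-05) for DM-aKG against WT. The ratio of Cd8a to Cd8b1 ran from 1.95 to 18.5 (median 6.91) over DM-aKG libraries, from 1.36 to 13.6 (median 4.81) over the 6 control libraries with Cd8b1 reads and from 3.45 to 8.23 (median 7.26) over WT libraries. The alpha chain thus exceeded the beta chain in every library where both were read, and the spread within the Apc Min groups covered that of WT.

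By group mean the granzyme genes stood farther under WT than the CD3 and CD8 genes did. Gzma (chr13:113093825-113100981, minus strand) encodes granzyme A, a serine protease of cytotoxic granules, and was the most abundant of the 10 genes in every group by its mean. It lay between 2.96 and 9.96 RPKM (median 6.09) with DM-aKG, between 0.515 and 22.1 RPKM (median 4.56) in control libraries and between 29.8 and 101 RPKM (median 78.5) in WT. Its mean was 6.28 ± 3.15 RPKM with DM-aKG (SD, n = 6), 7.18 ± 7.83 RPKM in control libraries (SD, n = 7) and 73.7 ± 26.5 RPKM in WT (SD, n = 7). The log2 change was -3.68 (SE 0.504, limma adjusted p = 5.65e-06) for control against WT, the 12th lowest of the 12431 genes tested, and -3.38 (SE 0.525, adjusted p = 9.94e-05) for DM-aKG against WT, the 7th lowest. The highest library exceeded the lowest 3.37-fold with DM-aKG, 42.8-fold in control libraries and 3.37-fold in WT.

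Gzmb (chr14:56258838-56262260, minus strand) encodes granzyme B, which starts cell death by cleaving caspases. It lay between 0.348 and 2.57 RPKM (median 1.47) with DM-aKG, between 0.138 and 4.46 RPKM (median 1.3) in control libraries and between 7.55 and 28.6 RPKM (median 21.6) in WT. In reads this was 14 to 107, 6 to 144 and 303 to 1110 per library, so depth did not limit the contrast with WT. Its mean was 6.94% of the WT mean with DM-aKG and 7.94% in control libraries, the lowest shares of the 10 genes. The log2 change was -3.12 (SE 0.345, limma adjusted p = 3.19e-07) for control against WT and -3.17 (SE 0.359, adjusted p = 3.72e-06) for DM-aKG against WT.

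The stretch before the start of both granzyme genes is shown because granzymes A and B are the core of the granule programme and T cells use Runt family factors in it. Capitals mark the Runt string TGTGGT on either strand and, in Gzmb, the AP-1 string TGANTCA. The windows are chr13:113100982-113101231 for Gzma and chr14:56262335-56262584 for Gzmb, both on the minus strand. By GENCODE M21 Gzmb starts at 56262260, and a stretch just after its RefSeq start was found in no GENCODE transcript of Gzmb. The positions in Gzmb therefore hold for the RefSeq start only.
Gzma: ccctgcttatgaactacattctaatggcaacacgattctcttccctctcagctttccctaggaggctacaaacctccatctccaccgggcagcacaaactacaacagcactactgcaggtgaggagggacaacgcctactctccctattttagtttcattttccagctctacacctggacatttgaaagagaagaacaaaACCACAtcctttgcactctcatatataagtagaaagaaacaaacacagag
Gzmb: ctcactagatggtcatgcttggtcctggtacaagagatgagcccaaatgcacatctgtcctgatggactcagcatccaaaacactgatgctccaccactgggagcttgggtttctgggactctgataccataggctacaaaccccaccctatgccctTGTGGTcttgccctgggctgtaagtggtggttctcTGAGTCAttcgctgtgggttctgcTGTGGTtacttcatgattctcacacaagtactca
The Runt string stood at -50 to -45 in Gzma and at -93 to -88 and -34 to -29 in Gzmb, whose AP-1 string stood at -58 to -52. Nkg7 was the other gene with a Runt string. A RefSeq promoter was matched for 7 of the 10 genes (not Cd8b1, Ccl5 and Itgae), and 3 of the 7 held it, against 14% of all promoters. The AP-1 string, in which N is any base, was in 6.75% of all promoters. A T-box string, AGGTGTNA, was found in Nkg7 and in 2.68% of all promoters. The Nkg7 window ends at 43437137, past the GENCODE start at 43437073, so its T-box and ETS strings lie after that start. No match overlapped another.

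Nkg7 (chr7:43437073-43438249, plus strand) encodes a granule membrane protein that cytotoxic cells need for release of their granules. It lay between 0.363 and 1.29 RPKM (median 0.891) with DM-aKG, between 0.0902 and 1.73 RPKM (median 0.548) in control libraries and between 3.85 and 8.84 RPKM (median 6.13) in WT. The log2 change was -2.12 (SE 0.197, limma adjusted p = 3.34e-08) for control against WT and -1.96 (SE 0.205, adjusted p = 1.29e-06) for DM-aKG against WT. Again the Apc Min groups overlapped each other and not WT.

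Ccl5 (chr11:83525778-83530518, minus strand) encodes a chemokine, RANTES, that effector CD8 T cells store and secrete to draw in further T cells. It lay between 3.05 and 9.29 RPKM (median 5.49) with DM-aKG, between 0.621 and 9.71 RPKM (median 3.07) in control libraries and between 26.6 and 58.4 RPKM (median 44.2) in WT. Its log2 change was -3.35 (SE 0.352, limma adjusted p = 1.75e-07) for control against WT and -2.73 (SE 0.367, adjusted p = 2.17e-05) for DM-aKG against WT. Its mean was 5.58 ± 2.31 RPKM with DM-aKG (SD, n = 6), 4.04 ± 3.52 RPKM in control libraries (SD, n = 7) and 42.3 ± 13 RPKM in WT (SD, n = 7), next below Gzma in each group.

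Itgae (chr11:73090583-73147446, plus strand) encodes the integrin chain that anchors intraepithelial lymphocytes to E-cadherin. It lay between 0.379 and 1.04 RPKM (median 0.581) with DM-aKG, between 0.479 and 0.882 RPKM (median 0.638) in control libraries and between 1.96 and 5.67 RPKM (median 3.33) in WT. The log2 change was -1.43 (SE 0.139, limma adjusted p = 5.94e-08) for control against WT and -1.44 (SE 0.145, adjusted p = 8.79e-07) for DM-aKG against WT. Itgae varied least between control libraries, with a coefficient of variation of 21.4%, against 109% for Gzma. Cdh1, which encodes E-cadherin, averaged 165 ± 19.5 RPKM with DM-aKG (SD, n = 6), 223 ± 25.8 RPKM in control libraries (SD, n = 7) and 193 ± 18.1 RPKM in WT (SD, n = 7). Its log2 change against WT did not pass for DM-aKG (-0.22, limma adjusted p = 0.0803) or control libraries (0.20, adjusted p = 0.0747). With median-of-ratios scaling Cdh1 was lower with DM-aKG than in WT (-0.30, adjusted p = 0.0203), and with quantile normalization it was higher in control libraries than in WT (0.32, adjusted p = 0.0272).

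Of the 10 genes, 9 passed the filter of at least 1 RPKM in at least 6 libraries. Cd8a, Cd3d, Nkg7 and Itgae passed only because WT libraries counted, so a count over the 9 carries no weight of its own. All 9 were lower in control libraries than in WT, where 15.7% of all tested genes were lower, and all 9 were lower with DM-aKG than in WT, where 17.3% were. Without the filter, 10 of 10 were lower in both comparisons, against backgrounds of 12.1% and 11.4%. The median log2 change of the 9 was -2.12 for control against WT, beside 0.20 over all tested genes, and -1.96 for DM-aKG against WT, beside 0.05. The 2 comparisons share the WT libraries, so they are not independent of each other.

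Marker genes beyond these 10 differed from WT as well. Ptprc marks leukocytes of any kind, T cells among them, so its level does not speak for other cells alone. Ptprc fell to 2.3 ± 1.64 RPKM in control libraries (SD, n = 7), against 7.07 ± 1.9 RPKM in WT (SD, n = 7), a log2 change of -1.37 (limma adjusted p = 7.47e-05), and to 2.8 ± 1.14 RPKM with DM-aKG (SD, n = 6), a log2 change of -1.11 (adjusted p = 0.00194). Ptprc was no longer called for control against WT with the smooth muscle mean as a covariate (-0.87, adjusted p = 0.0533), nor for DM-aKG against WT in replicates 1 to 4 alone (-0.93, adjusted p = 0.0663). The Ptprc mean was at 39.6% of WT with DM-aKG and 32.6% in control libraries, above the 6.94 to 18.0% of the 10 T cell genes. The 12 smooth muscle genes summed to 1052 to 1806 RPKM with DM-aKG, 455 to 1534 RPKM in control libraries and 1172 to 2004 RPKM in WT. All 12 were lower in control libraries than in WT and all 12 were higher with DM-aKG than in control libraries (11, without Actg2, after quantile normalization), while 0 of 12 differed between DM-aKG and WT by limma (1 was lower, Mylk, with median-of-ratios scaling). The 10 epithelial genes summed to 4050 to 5315 RPKM, 4811 to 7140 RPKM and 6283 to 8576 RPKM in the DM-aKG, control and WT groups. With the smooth muscle mean as a covariate, the median log2 change of the 9 tested T cell genes was -1.91 for DM-aKG against WT and -1.765 for control against WT, and Gzma had -3.23 (limma adjusted p = 0.000122) and -2.64 (adjusted p = 0.00884) in these comparisons. The part of tissue makeup in these differences was not tested.

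**Figure D2:**
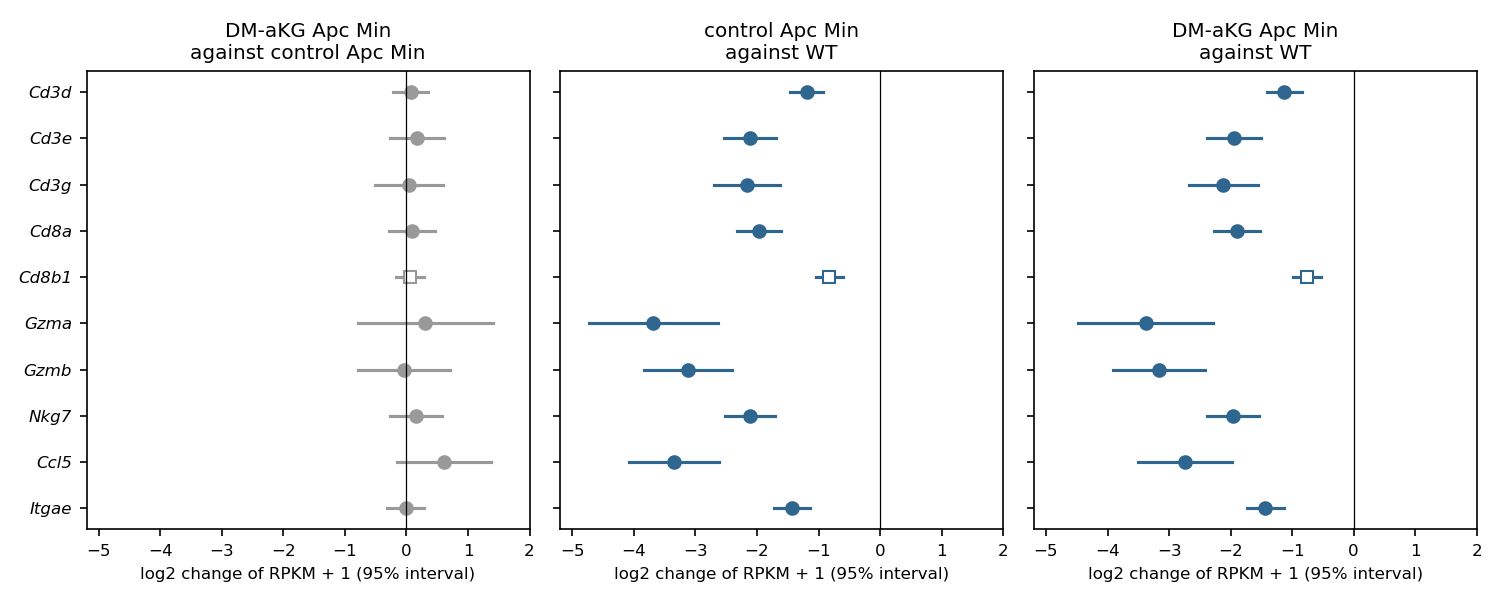
Log2 change of RPKM + 1 with its 95% interval for each gene in the 3 comparisons; blue marks an adjusted p under 0.05 from limma, grey any other, and the open square is Cd8b1 from the fit with no filter. Every interval of the 2 comparisons with WT lies under 0, and every interval of DM-aKG against control spans 0.

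The next comparison set the DM-aKG libraries beside the control Apc Min libraries. Limma called 0 of 9 genes, with 0 of 9 at an unadjusted p under 0.05, in a comparison that called 33.5% of all tested genes (5.91% higher and 27.6% lower). The widest difference was in Ccl5, with a log2 change of 0.61 and a 95% interval of -0.15 to 1.38 (adjusted p = 0.205). In 5 of 6 DM-aKG libraries Ccl5 exceeded the control median. Gzma had a log2 change of 0.30, with an interval of -0.79 to 1.40 (adjusted p = 0.69). The upper bounds of both genes exceed a log2 change of 1 and the lower bounds lie under 0. Narrower intervals were found for Cd3e, with a log2 change of 0.17 (-0.27 to 0.61), for Cd8a with 0.09 (-0.29 to 0.46), for Cd3d with 0.07 (-0.22 to 0.35) and for Itgae with -0.01 (-0.31 to 0.29). Gzmb had -0.05 (-0.79 to 0.70), Cd3g 0.04 (-0.51 to 0.60) and Nkg7 0.16 (-0.27 to 0.58). The median of the 9 changes was 0.09, beside -0.14 over all tested genes. Cd8b1, in the fit without the filter, had 0.06 (-0.17 to 0.29). Each gene's DM-aKG and control libraries overlapped.

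The treatment was also compared within the replicate sets that differ in Rn45s, a division known from the data and not from the labels. Gzma averaged 6.73 ± 3.51 RPKM with DM-aKG and 10.1 ± 9.58 RPKM in control libraries of replicates 1 to 4 (SD, n = 4 each). In replicates 5 to 7 it averaged 5.38 ± 3.21 RPKM with DM-aKG (SD, n = 2) and 3.3 ± 2.58 RPKM in control libraries (SD, n = 3). Ccl5 averaged 5.9 ± 2.48 RPKM and 5.48 ± 4.13 RPKM in the DM-aKG and control libraries of replicates 1 to 4, and 4.94 ± 2.67 RPKM and 2.11 ± 1.37 RPKM in those of replicates 5 to 7. No difference of the treatment between the sets was detected: limma's interaction called 0 of 9 genes, 0 of 9 at an unadjusted p under 0.05, and 0.209% of all tested genes. Against WT, all 9 genes were lower within either set alone in both comparisons, and 4 of them passed the filter only through WT libraries. In replicates 1 to 4, 1457 of all 12431 tested genes were lower in control libraries than in WT and 1498 with DM-aKG. In replicates 5 to 7 the numbers were 1141 and 350, the last from 2 DM-aKG and 3 WT libraries.

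Within each Apc Min group the same libraries tended to be high or low for most of the genes. Among DM-aKG libraries, replicate 4 was in the top 2 for all 10 genes (median 21.9%), and replicates 2 and 5 were in the bottom 2 for 9 and 10 genes (5.19 and 6.58%). Control replicate 1 held the highest control value of all 10 genes, with a median over genes of 24.5% of the WT mean. Control replicates 3 and 5 were among the lowest 2 for 9 genes each, at medians of 3.39 and 2.61%. WT replicate 4 held the lowest WT value of 8 genes, at a median of 62.9% of the WT mean. With group means removed, the 45 pairs of genes had Pearson correlations over 20 libraries between 0.05 and 0.94, with a median of 0.68. The closest pair was Gzma with Ccl5 (0.94). Cd8b1 (median 0.31 with the others) and Itgae (median 0.47) followed the other genes least. These values share the depth and scaling of each library and are given as a description.

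**Figure D3:**
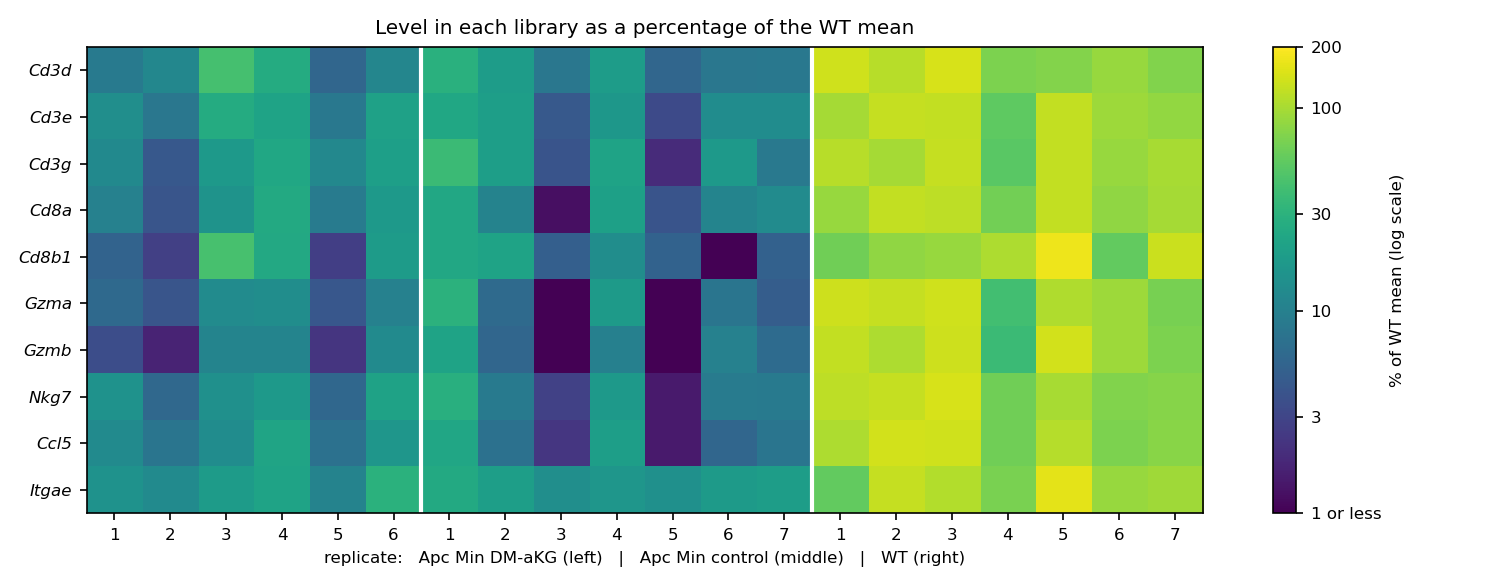
Level of each gene in each library as a percentage of the WT mean (log colour scale, values of 1% or less share the darkest colour), with DM-aKG replicates left, control replicates in the middle and WT replicates right. Control replicates 3 and 5 form dark columns (medians 3.39 and 2.61%), and control replicate 1 a lighter one (24.5%).

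Ratios between the genes were set side by side as a description, with no test. Relative to Cd3e, Gzmb stood at 0.554 to 1.61 (median 0.915) with DM-aKG, 0.407 to 2.44 (median 1.27) in control libraries and 1.83 to 3.35 (median 2.69) in WT. The ratio of Gzma to Cd3e was 4.27 to 5.98 (median 4.75) with DM-aKG, 1.52 to 12.1 (median 3.43) in control libraries and 7.24 to 12.8 (median 9.52) in WT. For both granzymes the DM-aKG ratios lay wholly under those of WT, while control ratios overlapped them. The ratios of Ccl5, Nkg7, Cd8a and Itgae to Cd3e overlapped WT in both Apc Min groups. Nkg7, for example, stood to Cd3e at 0.43 to 0.862 with DM-aKG, 0.353 to 0.946 in control libraries and 0.632 to 0.951 in WT. The ratio of Cd3e to Ptprc was 0.356 to 0.541 (median 0.443) with DM-aKG, 0.219 to 1.01 (median 0.359) in control libraries and 0.756 to 1.8 (median 0.963) in WT. Cd4, the coreceptor of helper T cells, stood to Cd8a at 1.09 to 3.2 (median 1.58) with DM-aKG, 0.633 to 15.7 (median 1.74) in control libraries and 0.353 to 0.572 (median 0.515) in WT. All Apc Min libraries had a higher ratio of Cd4 to Cd8a than any WT library. Cd4 itself was lower than in WT, by a log2 change of -0.85 in control (limma adjusted p = 7.96e-06) and -0.76 in DM-aKG libraries (adjusted p = 0.000168).

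The 10 genes named next had the library pattern most like the mean of the T cell genes, by Pearson correlation of log2(RPKM + 1) over 20 libraries with group means removed. They were Ctsw (r = 0.936), a protease of cytotoxic lymphocytes, Cd7 (0.928), a receptor of T and NK cells, Fignl2 (0.907), Gdpd1 (0.905), Ifi47 (0.902), an interferon-induced GTPase, Rinl (0.890), Gsdmd (0.879), the pore former of pyroptosis, Eci3 (0.876), Nmi (0.876), which interferons induce, and St3gal4 (0.874), a sialyltransferase. Without the 2 libraries farthest from the median of that mean, the correlations were 0.803 to 0.900.

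Lists of related genes were counted without the filter on low values, since many of their genes passed it only through high WT levels, which favours a lower call. Without it, 11.4% of all genes were lower and 15.3% higher with DM-aKG than in WT, and 12.1% were lower and 32.7% higher in control libraries than in WT. Of 28 genes of the T cell receptor pathway 21 were in the table. Of these 21, 16 were lower and 0 higher with DM-aKG than in WT, and 19 were lower and 1 higher in control libraries than in WT. The filter kept 9, of which 4 passed only because WT libraries counted (Cd6, Zap70, Lat and Ptprcap). Cd6, a surface receptor of T cells, lay between 0.0868 and 0.392 RPKM with DM-aKG, between 0.0464 and 0.281 RPKM in control libraries and between 0.919 and 2.05 RPKM in WT. Cd7 lay at 1.34 to 2.5, 0.317 to 3.34 and 7.5 to 15.4 RPKM in the DM-aKG, control and WT groups. The log2 change against WT was -1.21 for the kinase Lck with DM-aKG (limma adjusted p = 4.92e-06), and -1.23 for the adaptor Lat in control libraries (adjusted p = 6.61e-07). Tcf7, a T cell transcription factor that also acts in Wnt signalling, went the other way: it lay between 1.68 and 8.5 RPKM with DM-aKG, between 12.9 and 24.5 RPKM in control libraries and between 2.09 and 3.38 RPKM in WT. Its log2 change was 2.29 for control against WT (adjusted p = 3.34e-08) and -2.01 for DM-aKG against control (adjusted p = 9.99e-07). DM-aKG libraries were also lower than control for Zap70, the kinase recruited by the CD3 chains (log2 change -0.37, adjusted p = 0.00839), and for the adaptor Lcp2 (-0.30, adjusted p = 0.0299), so 3 of 9 were lower and 0 higher, near the 27.6% of all tested genes that were lower. With quantile normalization or median-of-ratios scaling Tcf7 alone was called. Without the filter, 3 of 21 were lower with DM-aKG than in control libraries and 1 was higher, Skap1. It averaged 0.627 RPKM with DM-aKG and 0.266 RPKM in control libraries. That fit called 4077 of 20519 genes lower and 1028 higher. The constant segments of the T cell receptor chains were not analysed here.

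Of 30 genes for granules, killer receptors and their regulators, 13 were lower, 0 higher and 17 not called with DM-aKG against WT in the fit without the filter. In control libraries against WT 14 were lower, 4 higher and 12 not called. Gzmm, another granzyme gene, named after its values were seen, averaged 0.189 RPKM with DM-aKG, 0.165 RPKM in control libraries and 0.19 RPKM in WT. The filter kept 10 genes, 5 of them only because WT libraries counted, Ctsw and Xcl1 included. Ctsw lay between 0.359 and 1.22 RPKM with DM-aKG, between 0.0255 and 1.3 RPKM in control libraries and between 1.91 and 3.72 RPKM in WT. Xcl1, a chemokine for cross-presenting dendritic cells, had a log2 change of -0.97 for control against WT (limma adjusted p = 1.05e-05) and -0.91 for DM-aKG against WT (adjusted p = 0.000137). Tnfsf10, the death ligand TRAIL, had -1.64 (adjusted p = 0.000113) and -1.04 (adjusted p = 0.0128). Of the 10 genes kept, the 1 that was higher in control libraries than in WT was Prdm1, a transcription factor of effector lymphocytes that epithelium also uses (log2 change 0.56, adjusted p = 0.000675), and it was also the 1 of the 10 called between DM-aKG and control, lower with DM-aKG (-0.48, adjusted p = 0.00674). That call was lost with quantile normalization (-0.28, adjusted p = 0.103) and median-of-ratios scaling (-0.34, adjusted p = 0.0526), and for control against WT Prdm1 was not called after quantile normalization (0.27, adjusted p = 0.0691).

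Of 23 genes for homing and residency of intraepithelial lymphocytes 22 were in the table. Without the filter 16 were lower and 2 higher with DM-aKG than in WT, and 16 were lower and 1 higher in control libraries than in WT. The filter kept 17, of which 9 passed only because WT libraries counted, Itgb7, Ccr9 and Cd96 among them. Itgb7, the partner of Itgae in the E-cadherin receptor, lay between 0.183 and 1.54 RPKM with DM-aKG, between 0.221 and 1.23 RPKM in control libraries and between 3.71 and 5.16 RPKM in WT. The gut-homing receptor Ccr9 had a log2 change of -0.97 for control (limma adjusted p = 4.2e-08) and -0.79 for DM-aKG libraries (adjusted p = 6.85e-06), each against WT. Cd96, a receptor of T and NK cells, had -1.41 (adjusted p = 7.9e-08) and -1.16 (adjusted p = 9.89e-06) in the same comparisons. Between DM-aKG and control libraries 3 of the 17 were higher and 3 lower, beside 5.91% higher and 27.6% lower among all tested genes. This balance depended on the scaling, with 8 higher and 2 lower after quantile normalization and 5 higher and 3 lower after median-of-ratios scaling. Rgs1, a regulator of chemokine receptors in resident T cells, averaged 11.5 RPKM with DM-aKG, 6.34 RPKM in control libraries and 5.02 RPKM in WT. It was higher with DM-aKG than in control libraries (log2 change 0.79, adjusted p = 0.006) and than in WT (1.04, adjusted p = 0.000726). Ahr, which sustains intraepithelial lymphocytes, averaged 2.89, 4.82 and 2.26 RPKM in the same order. It was lower with DM-aKG than in control libraries (-0.56, adjusted p = 0.00522). In control libraries Ahr was higher than in WT (0.84, adjusted p = 4.04e-05). Jaml, a costimulatory receptor of epithelial T cells, averaged 4.91, 7.54 and 6.8 RPKM. It was lower with DM-aKG than in control libraries (-0.51, adjusted p = 0.00292) and than in WT (-0.40, adjusted p = 0.0136). Cd244 had a change of -0.43 between DM-aKG and control libraries (adjusted p = 0.0163). Between these groups Jaml was not called after quantile normalization (-0.32, adjusted p = 0.0747). Unlike the T cell genes, Rgs1 and Ahr were not lower than in WT in either Apc Min group. Which cells gave these changes was not tested.

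Of 25 epithelial ligands and cytokines that feed or hold these lymphocytes, 5 were lower and 4 higher with DM-aKG than in WT without the filter, and 13 were lower and 5 higher in control libraries than in WT. The filter kept 21, 3 of them only because WT libraries counted (Il7, Cxcl9 and Cxcl10). In that fit 7 were lower and 3 higher with DM-aKG than in WT, and 12 were lower and 5 higher in control libraries than in WT (13 and 2 under either other scaling). Of all tested genes 17.3% were lower and 21.9% higher with DM-aKG than in WT, and 15.7% were lower and 43.2% higher in control libraries than in WT. Ccl25, the ligand of Ccr9, lay between 171 and 256 RPKM (median 245) with DM-aKG, between 87.6 and 218 RPKM (median 143) in control libraries and between 251 and 388 RPKM (median 314) in WT. Tnfrsf14, a ligand for Cd160 on intraepithelial lymphocytes, averaged 5.0, 2.81 and 10.4 RPKM in the DM-aKG, control and WT groups, with a log2 change of -1.63 for control against WT (limma adjusted p = 4.73e-06). Between the Apc Min groups, 6 genes were higher and 3 lower with DM-aKG than in control libraries, 9 and 2 after quantile normalization and 8 and 1 after median-of-ratios scaling. Of all 12431 tested genes 5.91% were higher and 27.6% lower. After quantile normalization 1750 were higher and 1849 lower, and after median-of-ratios scaling 1370 and 1841. Without the filter 5 of the 25 genes were higher and 3 lower. Btnl4 averaged 31.7 RPKM with DM-aKG, 19.2 RPKM in control libraries and 31.1 RPKM in WT, and its change with DM-aKG was 0.71 (adjusted p = 0.000352). Btnl6, a butyrophilin-like protein that mouse epithelium shows to gamma-delta T cells, averaged 169, 100 and 188 RPKM in the same order, with a change of 0.81 (adjusted p = 0.00367). Tgfb1, which induces Itgae in T cells, averaged 4.18 RPKM with DM-aKG and 8.09 RPKM in control libraries, a change of -0.81 (adjusted p = 3.2e-06). Il15, the main survival cytokine of these lymphocytes, was higher with DM-aKG than in WT (0.92, adjusted p = 0.000723), while the T cell chemokine Cxcl9 was lower (-1.85, adjusted p = 0.0003), as was Il7 (-0.47, adjusted p = 0.000848).

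**Figure D4:**
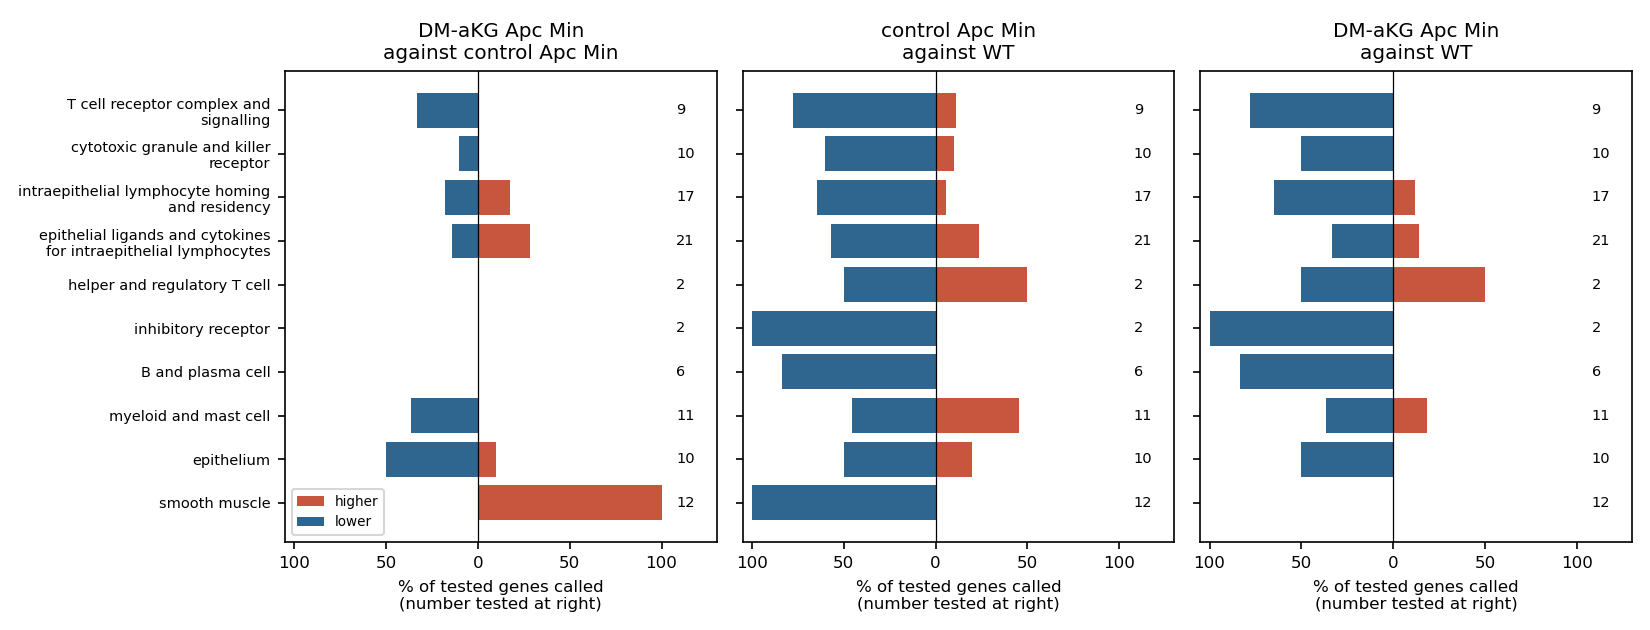
Share of tested genes of each list called higher (red, right) or lower (blue, left) by limma at an adjusted p under 0.05 in the 3 comparisons, with the number tested at the right of each bar. In the T cell receptor, granule and homing lists 4 of 9, 5 of 10 and 9 of 17 genes passed the filter only through WT, which favours lower calls against WT; with DM-aKG against control, 12 of 12 smooth muscle genes are higher (11 after quantile normalization).

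Lists for other immune cells divided. Without the filter, 4 of 10 genes of B and plasma cells were lower with DM-aKG than in WT, where 11.4% of all genes were. In control libraries 5 of 10 were lower than in WT, where 12.1% of all genes were, and 0 were higher in either comparison. The filter kept 6, Tnfrsf17 only because WT libraries counted, and 5 of 6 were lower and 0 higher in either Apc Min group than in WT. None was called between DM-aKG and control libraries, but Tnfrsf17 was higher after quantile normalization (0.44, limma adjusted p = 0.00808) and Jchain after median-of-ratios scaling (0.94, adjusted p = 0.0269). Jchain, made by plasma cells, averaged 121 RPKM with DM-aKG, 69.4 RPKM in control libraries and 497 RPKM in WT. Of 14 myeloid and mast cell genes, 5 were lower and 7 higher in control libraries than in WT without the filter, where 32.7% of all genes were higher. With DM-aKG against WT 5 were lower and 2 higher, where 15.3% of all genes were higher. The filter kept 11, of which 5 were lower and 5 higher in control libraries than in WT. With DM-aKG against WT 4 of the 11 were lower and 2 higher. S100a9, a neutrophil gene, averaged 3.15 RPKM with DM-aKG, 3.98 RPKM in control libraries and 0.139 RPKM in WT. Of 7 inhibitory receptor genes, 2 were lower and 0 higher with DM-aKG than in WT without the filter, and 4 were lower and 0 higher in control libraries than in WT. Ctla4, named after its values were seen, had higher means in Apc Min than in WT libraries, at 0.638 RPKM with DM-aKG, 0.564 RPKM in control libraries and 0.328 RPKM in WT, and was not called higher. The filter kept 2, both only because WT libraries counted: Lag3 averaged 0.444, 0.479 and 1.83 RPKM in the DM-aKG, control and WT groups, and Cd274, the ligand of PD-1, averaged 1.1, 0.872 and 5.12 RPKM.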

How the data were processed

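The members and the gene lists were chosen with earlier results of these data known. The authors deposited a table of 24795 genes by 20 libraries, read here as RPKM: the values are not whole, and their smallest step differs between genes. Per the labels' protocols, RNA was extracted with a Qiagen kit and libraries were prepared with Illumina TruSeq reagents. The software listed per the submitters' processing notes was Partek, HISAT2 2.0.4 and CASAVA 1.8, with the mouse build mm10. The annotation and strand setting were not given in the sources used here, so overlapping and antisense genes cannot be told apart. Because RPKM is scaled to the library total, a large change in abundant genes shifts the others.

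Depth was estimated from the steps of low values of 6082 genes with a single GENCODE M21 transcript. Within 0.1 read, 65.9 to 71.4% of values up to 8 reads came out whole, which is too few for a count test. Rows with repeated names (4) were left out, and 24228 names matched GENCODE.

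The 12431 genes reaching 1 RPKM in 6 or more libraries were fitted on log2(RPKM + 1), over all 20 libraries and 3 groups, with limma 3.58.1 (trend and robust, statmod 1.5.0, R 4.3.3). Tests were 2-sided with Benjamini-Hochberg adjustment over all genes tested, called under 0.05, and were tested on simulated data. Python 3.11.15, numpy 2.4.6, pandas 2.3.3 and matplotlib 3.10.9 made the summaries and figures. Named genes were the 10 members, Ptprc, up to 4 called genes per list and comparison with the smallest adjusted p, and the 10 genes most like the members, without predicted genes and receptor segments. Marker genes of epithelium and muscle and genes in ratios were added from the lists. Promoters came from RefSeq on GRCm38.p6. Alternatives varied the pseudocount, the filter, the scaling, the libraries in the fit, a replicate block, a factor for the replicate set and a smooth muscle covariate. Those for the interaction with the replicate set were chosen after seeing the data.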

Additional observations from a re-analysis of the deposited data

How the results depend on the processing

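In both comparisons with WT, the 9 tested T cell genes stayed lower and called under all 30 alternatives (270 values per comparison), with adjusted p-values from limma of 5.88e-09 to 0.00884 for control and 2.04e-07 to 0.0249 for DM-aKG. In DM-aKG against control none of the 9 was called under any of them (adjusted p 0.0557 to 0.999, the lowest for Ccl5), and 37 of 270 uncalled log2 changes turned sign; the cause was not tested. With the smooth muscle covariate Cd8a had -0.093, Cd3d -0.126, Cd3e -0.146, Cd3g -0.435, Gzma -0.590, Nkg7 -0.127 and Itgae 0.045. With replicates 1 to 4 only, Cd3g had -0.262, Gzma -0.035 and Nkg7 -0.004, and with replicates 5 to 7 only Gzmb had 0.160 and Itgae 0.064. Quantile normalization gave Gzmb 0.103 and Itgae 0.137, median-of-ratios scaling 0.040 and 0.053. A pseudocount of 0.1 gave Gzmb 0.058, and the replicate set as a factor gave Itgae 0.000. Leaving out single libraries gave ranges of -0.011 to 0.180 for Cd8a, -0.024 to 0.120 for Cd3d, -0.111 to 0.210 for Cd3g, -0.004 to 0.651 for Gzma, -0.216 to 0.162 for Gzmb and -0.077 to 0.036 for Itgae. With the interaction, 0 of the tested T cell genes were called under each alternative run.

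The replicate numbers did not pair the samples: over 19 same-numbered pairs the correlation of deviations ran from -0.457 to 0.604, over 0.1 in 8, and 2 libraries correlated best with their own number. With the replicate block, limma called 0, 9 and 9 of the 9 genes in DM-aKG against control, control against WT and DM-aKG against WT, as without it. Depth limits Cd8b1, with 0 to 16 reads per Apc Min library. Reads were worked out for Cd8b1 and Gzmb only. Other low values may also rest on few reads, such as the lowest control values of Nkg7 (0.0902 RPKM), Cd8a (0.0666 RPKM) and Cd3d (0.11 RPKM). The wide intervals of Gzma and Ccl5 limit the treatment comparison.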

Other observations

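Several genes of the lists did not pass the filter on low values and are named here after their values were seen. They were tested only in the fit without the filter. Prf1, which encodes the pore-forming protein perforin, lay between 0.0183 and 0.159 RPKM with DM-aKG, between 0 and 0.0338 RPKM in control libraries and between 0.196 and 0.518 RPKM in WT, with no overlap between WT and either Apc Min group. Cd160, a receptor of intraepithelial lymphocytes, lay at 0.0427 to 0.385, 0.0132 to 0.319 and 0.77 to 1.36 RPKM in the DM-aKG, control and WT groups, again without overlap with WT. Cd5, which marks conventional T cells and is low on many intraepithelial ones, lay at 0.0178 to 0.287, 0.0177 to 0.448 and 0.419 to 1.92 RPKM, where the highest control library reached the WT range. Tnf did not follow this pattern: it lay between 0.0892 and 0.569 RPKM with DM-aKG, between 0.631 and 1.79 RPKM in control libraries and between 0.274 and 0.639 RPKM in WT. Foxp3, the factor of regulatory T cells, lay at 0.0282 to 0.157, 0.0923 to 0.264 and 0.048 to 0.149 RPKM, so its Apc Min and WT libraries overlapped. In the fit without the filter, Tnf and Foxp3 were called higher in control libraries than in WT, where 32.7% of all genes were. Neither was called higher with DM-aKG than in WT. Of 12 helper and regulatory T cell genes, 2 were higher and 5 lower in control libraries than in WT in that fit. H2-T3, an epithelial ligand of CD8 alpha pairs, passed the filter and averaged 39.7 RPKM with DM-aKG, 27.2 RPKM in control libraries and 63.6 RPKM in WT. It was lower than in WT in control libraries (log2 change -1.32, limma adjusted p = 0.000243) and with DM-aKG (-0.75, adjusted p = 0.034, but 0.0659 after quantile normalization).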
